A study of Homo sapiens with 4 samples.

Results

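The accessible chromatin of 7 genes that set or serve erythroid identity was examined in K562, an established human chronic myelogenous leukaemia line with erythroid features. They are the transcription factor genes TAL1, GFI1B, NFE2 and KLF1, the cofactor genes LMO2 and ZFPM1, and EPOR, the gene of the erythropoietin receptor. Accessibility had been read out by ATAC-seq, in which a transposase inserts sequencing adapters where DNA is not covered, and the deposited files list the regions that gained signal over untreated cells. The regions studied are those in any of the 3 lists that overlap one of the gene spans, extended by 10 kb on either side. They number 25 of 100205 gained regions.

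The groups were untreated K562 cells and K562 cells treated for 4 h with an anthracycline. Doxorubicin (Doxo) was used at 10 µM and so was N,N-dimethyldoxorubicin (diMe-Doxo), in which the amine of the sugar is dimethylated. Aclarubicin (Acla), whose sugar chain is longer, was used at 20 µM. Each group is 1 GEO sample and each list holds values for 2 treated libraries and for the same 2 control libraries. Nothing states that these libraries came from separate cultures, so a p-value measures only the spread between libraries, which may be technical. The listed regions held 3534855 to 7266289 reads in a treated library and 120492 to 253175 in a control library. The full depth is unknown, and K562 cells are aneuploid, so signal is compared between drugs at one region rather than between genes.

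In red cell precursors TAL1, a basic helix-loop-helix factor that binds the E-box, sits with GATA1 in a complex that LMO2 bridges, and ZFPM1 (also called FOG1) is the cofactor that GATA1 needs at many of its targets. GFI1B is a repressor of the same network, while KLF1 and NFE2 activate globin and other red cell genes. EPOR passes on the erythropoietin signal that keeps such precursors alive. Several of these genes are themselves targets of GATA factors.

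To show the sequences at these gene starts, the 250 bases before the annotated start were read for TAL1 (the first of its 2 entries), KLF1, EPOR and ZFPM1 from RefSeq (GRCh38.p14). RefSeq promoter entries were matched for 5 of the 7 genes. Capitals mark each match on either strand to the letters searched for GATA factors, which were AGATAA and also TGATAA and likewise AGATAG and finally TGATAG.
TAL1, chr1:47232336-47232585, minus strand: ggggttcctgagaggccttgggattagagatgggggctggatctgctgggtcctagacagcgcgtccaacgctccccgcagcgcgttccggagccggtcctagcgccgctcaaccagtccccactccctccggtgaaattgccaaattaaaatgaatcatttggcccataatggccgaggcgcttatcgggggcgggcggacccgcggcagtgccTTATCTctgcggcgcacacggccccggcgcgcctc
KLF1, chr19:12887202-12887451, minus strand: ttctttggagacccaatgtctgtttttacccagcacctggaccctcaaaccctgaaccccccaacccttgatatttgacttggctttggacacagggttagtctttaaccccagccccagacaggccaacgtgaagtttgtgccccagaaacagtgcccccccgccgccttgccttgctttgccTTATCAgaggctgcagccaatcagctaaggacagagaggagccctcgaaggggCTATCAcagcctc
EPOR, chr19:11384315-11384564, minus strand: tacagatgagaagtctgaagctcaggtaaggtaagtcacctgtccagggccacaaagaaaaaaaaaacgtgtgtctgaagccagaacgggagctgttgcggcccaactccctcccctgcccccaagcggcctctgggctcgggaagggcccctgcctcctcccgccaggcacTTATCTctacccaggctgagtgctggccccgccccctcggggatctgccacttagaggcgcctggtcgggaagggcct
ZFPM1, chr16:88453030-88453279, plus strand: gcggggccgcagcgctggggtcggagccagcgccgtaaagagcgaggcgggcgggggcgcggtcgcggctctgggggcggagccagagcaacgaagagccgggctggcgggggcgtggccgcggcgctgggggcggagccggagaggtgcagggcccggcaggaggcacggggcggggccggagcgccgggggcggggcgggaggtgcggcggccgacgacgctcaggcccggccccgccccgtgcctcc
The TAL1 promoter shown and the EPOR promoter held 1 match each and the KLF1 promoter 2. The other TAL1 entry held 0, and of the 2 GFI1B entries, which are not shown, 1 held a match and the other held 0. The ZFPM1 promoter held 0, with a G+C content of 83.2% beside a median of 58% over all 35116 promoter entries. A match was present in 22.3% of those entries and is given as a description of the letters only. CCNCNCCC, letters searched for KLF1, had 9 matches in the ZFPM1 promoter, 2 each in the TAL1 and EPOR promoters shown and 0 in that of KLF1. At least 1 was present in 53.4% of all entries. The E-box CANNTG had 2 matches in the EPOR promoter, 1 each in the TAL1 and KLF1 promoters shown and 0 in that of ZFPM1. It was present in 61.8% of all entries.

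No gained region reached the annotated 5′ edge of these genes. For the 5 genes with a region, the distance from the 5′ edge of the span to the nearest region border was taken. It was 2815 bp at TAL1, 3085 bp at EPOR, 9412 bp at KLF1, 17509 bp at ZFPM1 and 44144 bp at GFI1B. GFI1B has more than this outer start, since its 2 RefSeq promoter entries end at 132945530 and 132978693 on GRCh38.p14. The region's distance to the second start, which lies further into the gene, was not measured. The spans are rounded to 1 kb and are on GRCh37, the build of the lists, whereas the promoter sequences are on GRCh38.p14, so these were not laid over each other. Of the 25 regions, 20 lay wholly inside a gene span, 1 lay partly inside and 4 overlapped only the 10 kb flanks. Among these 4, both KLF1 regions ran past the outer edge of their window.

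**Figure D1:**
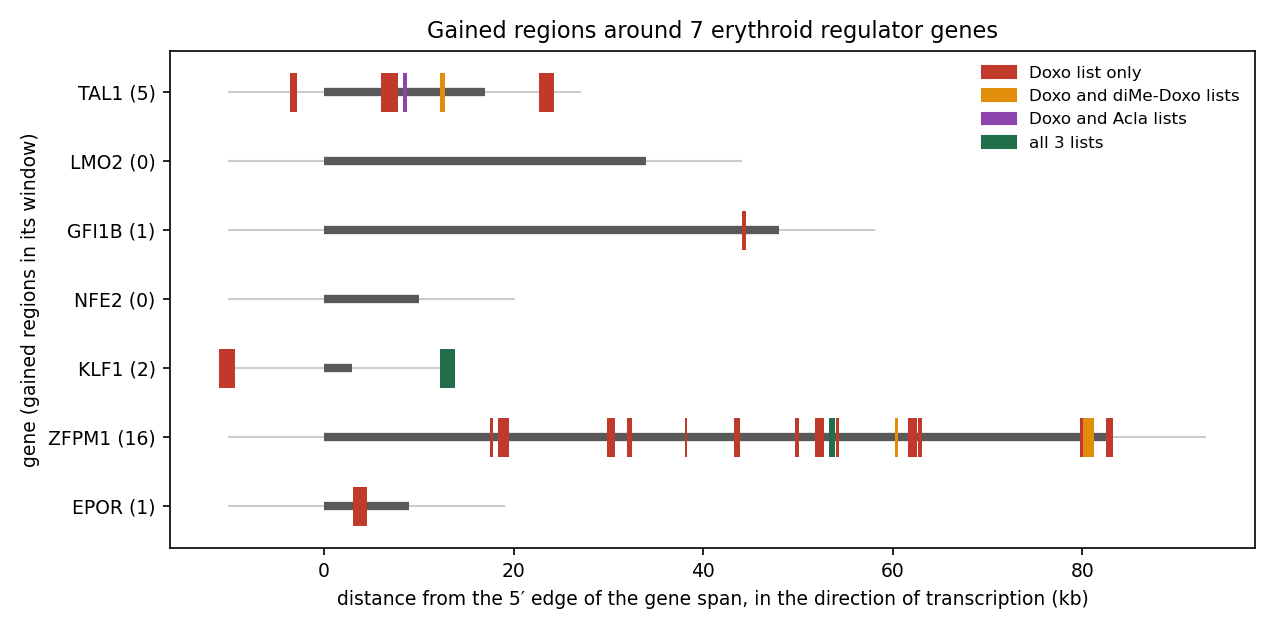
Gained regions around the 7 genes, drawn to scale by distance in kb from the 5′ edge of each gene span. Thick lines are the spans and thin lines the 10 kb extensions, coloured boxes are regions (drawn at least 0.3 kb wide) and colours give the lists that hold them. ZFPM1 carries 16 of the 25 regions along its body, and LMO2 and NFE2 carry 0, so the direction of those 2 spans has no bearing.

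All 25 regions were listed as gained with Doxo, 5 with diMe-Doxo and 3 with Acla. Over all regions of the union, 66.6% were in the Doxo list, 52.7% in the diMe-Doxo list and 61.2% in the Acla list. Of the 25, 19 were listed for Doxo alone, beside 29.5% of all regions, and 2 were in all 3 lists, beside 28.7%. None was listed for diMe-Doxo or Acla without Doxo. The genes were proposed with results of these data known, and 16 of the regions lie in 1 gene, so these counts carry no test. Without ZFPM1, 9 of 9 regions were in the Doxo list, 2 in the diMe-Doxo list and 2 in the Acla list.

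The chromatin around 6 of the 7 genes also held more Doxo-alone regions than the union, and that around TAL1 fewer. Within 500 kb of the 7 windows, the windows left out, lay 424 gained regions, of which 90.3% were in the Doxo list and 55.0% in the Doxo list alone. Of the same regions 37.0% were in the diMe-Doxo list and 35.4% in the Acla list. Doxo alone held 21.9% of the regions around TAL1 and 46.0% to 79.7% around the other 6 genes, beside 29.5% of all regions. The part of the neighbourhood in the members' counts was not tested.

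**Figure D2:**
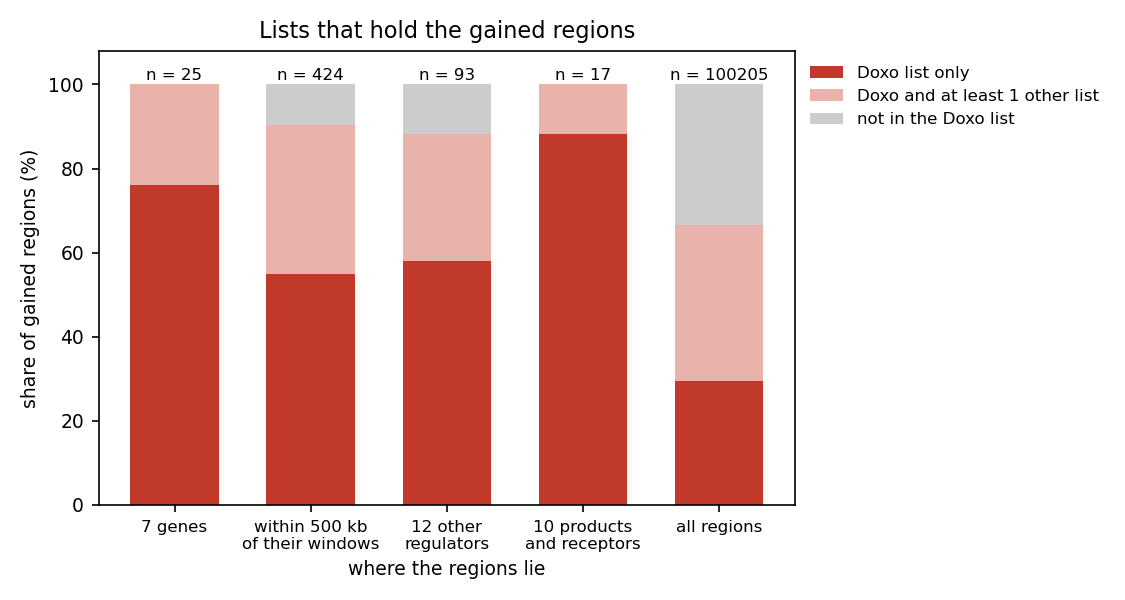
Share of gained regions by the lists that hold them, for the 7 genes, the 500 kb around their windows, 2 lists of other haematopoietic genes and all regions. Doxo alone holds 76% of regions at the 7 genes, 55.0% around them and 29.5% of all regions.

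A region missing from the diMe-Doxo or Acla list has no value there, and a smaller gain with that drug is possible. Given the control reads, the 20 regions not listed for diMe-Doxo needed a mean of 32.8 to 352 reads per library (median 99.2) to reach the lowest listed log2 fold of 1.5, and a p of at most 0.05 besides. The 22 regions not listed for Acla needed 47.1 to 502 reads (median 134). Absence is therefore a statement about the limits of the lists, not about closed chromatin.

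TAL1 carried 5 regions, and at each of them both Doxo libraries stood above both controls. Reads here and below are counts before scaling unless called normalized, so they do not compare between drugs. The widest of the 25 regions, inside TAL1 on chromosome 1 at 47690216-47691946 (region 4), had 570 and 632 reads with Doxo and 30 and 20 reads in the controls. In the authors' deposited table its log2 fold over control was 3.58 (false discovery rate, FDR, 6.29e-06). It was listed for Doxo alone, and a diMe-Doxo library mean of 352 reads would have been needed to reach the listed fold there, the most of all 20 unlisted regions.

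Next to it and further into the gene, TAL1 region 3 at 47689208-47689633 was listed for Doxo and Acla. It had 117 and 147 reads with Doxo, 82 and 83 with Acla, and 1 and 5 in the controls. The authors' deposited table gives log2 folds of 4.48 with Doxo (FDR 1.99e-05) and 2.05 with Acla (FDR 0.0372). TAL1 region 2 at 47685208-47685783 was listed for Doxo and diMe-Doxo instead, with 117 and 150 reads with Doxo, 65 and 47 with diMe-Doxo, and 1 and 6 in the controls. Its authors' log2 folds in the deposited table were 4.27 (FDR 5.82e-05) and 1.80 (FDR 0.0763).

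The remaining TAL1 regions lay outside the gene and were listed for Doxo alone. Region 5 at 47700815-47701522, 2815 bp before the 5′ edge, had 81 and 118 reads with Doxo and 1 and 15 in the controls (log2 fold 2.66 in the authors' deposited table, FDR 0.0277). Region 1 at 47673713-47675326, 5674 bp beyond the 3′ edge, had 193 and 230 reads with Doxo and 30 and 11 in the controls (log2 fold 2.35 in the authors' deposited table, FDR 0.0111). These 2 had the lowest folds of the 5. The TAL1 window held 13.5 regions per 100 kb, the surrounding 500 kb on either side 6.40. Of those 64 surrounding regions 78.1% were in the Doxo list and 71.9% in the diMe-Doxo list, with 21.9% in the Doxo list alone.

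LMO2, the bridging partner of TAL1, had no gained region in its window on chromosome 11. The nearest Doxo and diMe-Doxo region lay 38244 bp from the span, at 33841210-33841756, with authors' log2 folds of 3.17 and 2.54 in the deposited table. The nearest Acla region lay 39392 bp away, at 33839925-33840608 (2.04). In the surrounding 500 kb on either side there were 32 regions, 30 of them in the Doxo list.

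ZFPM1, the GATA1 cofactor, carried 16 regions that together covered 9623 bp, all of them in the Doxo list. Of these, 13 were listed for Doxo alone, 2 also for diMe-Doxo and 1 for all 3 drugs. They began 17509 bp into the gene on chromosome 16 and ran to its 3′ end, with gaps of 149 to 16647 bp (median 1317) between neighbours. The window held 15.5 regions per 100 kb and the surrounding 500 kb on either side 12.5, of which 93.6% were in the Doxo list.

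The lowest FDR of ZFPM1 in the Doxo list belonged to region 15 near the 3′ end, at 88599098-88600237. It had 318 and 366 reads with Doxo, 128 and 108 with diMe-Doxo, and 1 and 13 in the controls. The authors' deposited table gives log2 folds of 4.64 with Doxo (FDR 0.000116) and 1.89 with diMe-Doxo (FDR 0.0746). Region 16 at 88601554-88602236, which is nearest the gene's end and crosses the 3′ edge of the span, had 193 and 210 reads with Doxo and 14 and 10 in the controls (log2 fold 3.07, FDR 0.000154, in the authors' deposited table). Here the 2 controls were close to each other, unlike at region 15.

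Region 9 at 88572294-88572840 was the ZFPM1 region of all 3 lists and had the lowest FDR of the gene with diMe-Doxo and with Acla. Its reads were 72 and 59 with Doxo, 101 and 59 with diMe-Doxo, 104 and 103 with Acla, and 1 and 3 in the controls. These counts are not scaled, and normalized reads are given further below. In the authors' deposited table the log2 folds were 4.05 (FDR 0.000142), 3.09 (FDR 0.00261) and 2.95 (FDR 0.00279). No peak had been called there in either Doxo library. Region 11 at 88579270-88579619, named because it is in both the Doxo and the diMe-Doxo list, had 56 and 59 reads with Doxo, 57 and 28 with diMe-Doxo, and 3 and 2 in the controls. Its authors' log2 folds in the deposited table were 3.52 (FDR 0.000441) and 1.77 (FDR 0.0915).

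ZFPM1 regions 1 to 8 were listed for Doxo alone, as were regions 10, 12, 13, 14 and 16 further toward the 3′ end. Region 1 at 88536509-88536878 had 72 and 85 reads with Doxo and 1 and 5 in the controls (log2 fold 3.73, FDR 0.000375, in the authors' deposited table). Next to it the widest ZFPM1 region, region 2 at 88537310-88538454, had 167 and 192 reads with Doxo and 4 and 20 in the controls (log2 fold 2.92, FDR 0.00514, in the authors' deposited table). Region 8 at 88570840-88571790 had the most control reads of the gene, 24 and 20, beside 156 and 151 with Doxo, and one of the smallest folds (1.80, FDR 0.0177, in the authors' deposited table). Across the 16 regions the authors' log2 fold with Doxo ran from 1.73 to 4.64 with a median of 2.98, and 12 of 16 had an FDR of at most 0.05, beside 81.2% of the Doxo list.

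GFI1B, the repressor, had a single gained region in its window on chromosome 9, near the 3′ end at 135864144-135864514 and listed for Doxo alone. It had 60 and 39 reads with Doxo and 1 and 7 in the controls (log2 fold 2.65, FDR 0.0169, in the authors' deposited table). The nearest diMe-Doxo and Acla region lay 71582 bp from the gene, at 135939582-135940489. The GFI1B window held 1.47 regions per 100 kb and the surrounding 500 kb on either side 7.40.

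KLF1, the activator of adult globin, had 2 regions that overlapped its window on chromosome 19, both outside the gene. Region 1 at 12984259-12985821, 9179 bp beyond the 3′ edge, had 276 and 310 reads with Doxo, 46 and 31 with diMe-Doxo, 54 and 108 with Acla, and 1 and 3 in the controls. Its log2 fold with Doxo was 6.21 (FDR 3.22e-09), beside 2.04 with diMe-Doxo (FDR 0.058) and 2.60 with Acla (FDR 0.0174), all in the authors' deposited table. That Doxo fold was the highest of the 25 regions over the mean of both controls, but not over either control alone (7.17 with control library 1 and 5.64 with control library 2). Region 2 at 13007412-13009069, 9412 bp before the 5′ edge and listed for Doxo alone, had 169 and 207 reads with Doxo and 1 and 17 in the controls (log2 fold 3.41, FDR 0.00591, in the authors' deposited table). In RefSeq on GRCh38 the genes next to KLF1 are DNASE2 and GCDH, so neither region can be assigned to KLF1 from its position.

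NFE2, whose product partners small Maf proteins at globin control regions, had no gained region in its window on chromosome 12. The nearest Doxo region lay 72724 bp from the span, at 54611397-54612276 (log2 fold 4.22 in the authors' deposited table), and the nearest diMe-Doxo and Acla region 82261 bp away. The surrounding 500 kb on either side held 26 regions, 23 of them in the Doxo list.

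EPOR had 1 gained region, inside the gene on chromosome 19 at 11491391-11492915 and listed for Doxo alone. It had 201 and 199 reads with Doxo and 5 and 1 in the controls, and the 2 Doxo libraries were nearly equal. Its log2 fold was 5.04 (FDR 1.48e-06) in the authors' deposited table. The fold rested on the choice of control, at 4.29 over control library 1 alone and 6.67 over control library 2 alone. All 59 gained regions in the surrounding 500 kb on either side were in the Doxo list, 6 of them also in the diMe-Doxo list and 12 in the Acla list.

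**Figure D3:**
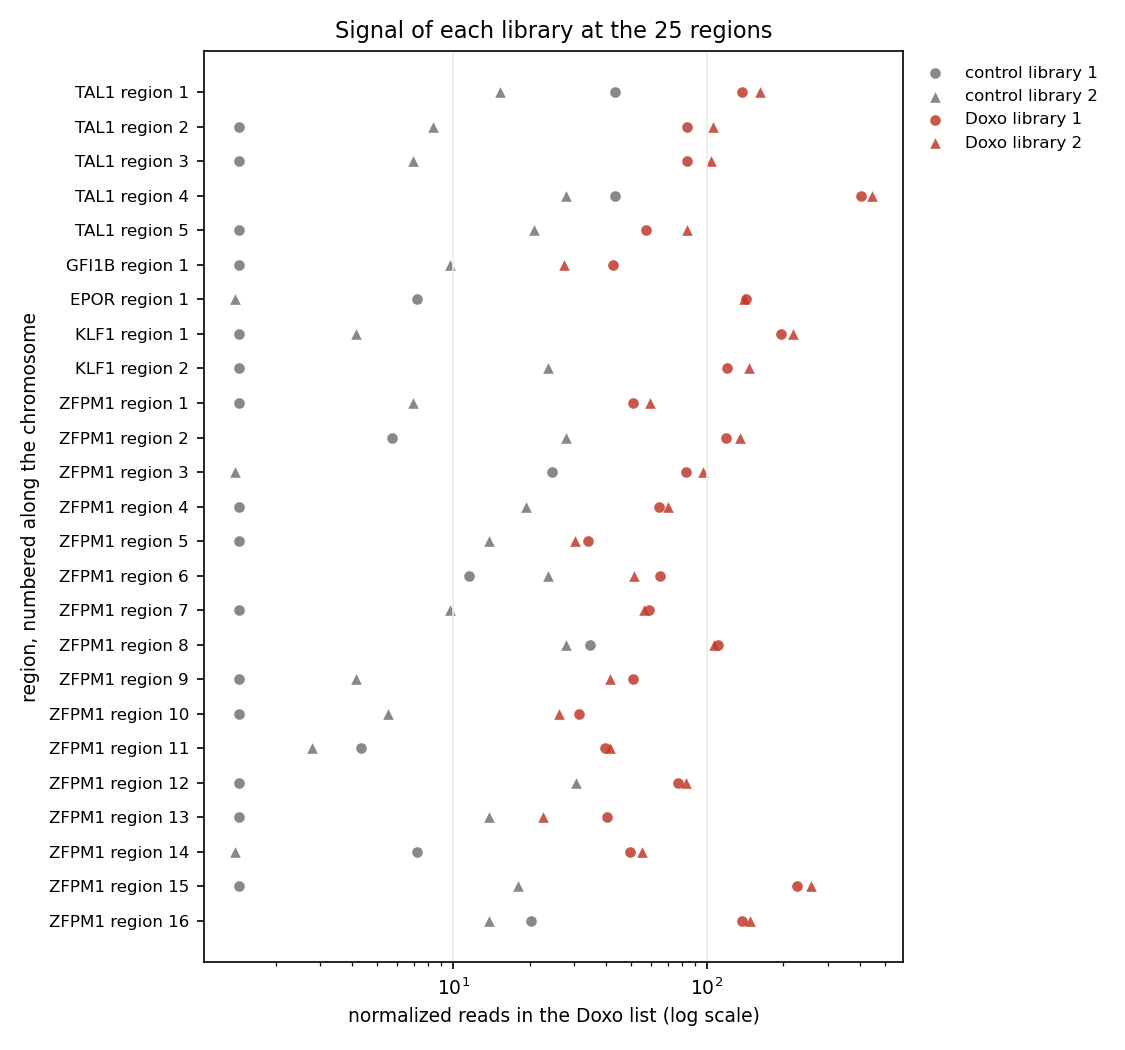
Normalized reads of each library at the 25 regions, in the scale of the Doxo list and on a log axis, with circles for library 1 and triangles for library 2. Both Doxo libraries (red) lie right of both controls (grey) at all 25 regions, and 1 control library often sits at the floor of 1 read while the other does not.

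Across the 25 members, the folds with Doxo were close to those of the whole list. Their median log2 fold in the authors' deposited table was 3.07, against 2.95 for all Doxo regions, and 14 of 25 were above that value. An FDR of at most 0.05 was reached by 21 of 25 with Doxo, where 81.2% of the list reached it. With diMe-Doxo 1 of 5 did, ZFPM1 region 9, where 77.1% of the list did, and with Acla 3 of 3 did, where 82% of the list did. The median log2 fold of the 5 diMe-Doxo entries was 1.89 beside 2.52 in the list, and that of the 3 Acla entries 2.60 beside 2.62. Both Doxo libraries exceeded both controls at 25 of 25 regions, as they did at 66689 of the 66720 Doxo regions (100%), since the list was selected for gain. A peak had been called in both Doxo libraries at 19 of the 25 regions, beside 63.4% of all Doxo regions. At an FDR of at most 0.01 with a log2 fold of at least 2, there were 15 members with Doxo (32.5% of all regions), 1 with diMe-Doxo (20.1%) and 1 with Acla (26.2%).

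By median reads, control signal at the members was above that of the union in control library 2 and equal to it in library 1. K562 cells are aneuploid and copy number was not considered, so these levels are a description only. At 24 of the 25 regions neither control library had a peak, beside 85.9% of all regions. The exception was ZFPM1 region 4 at 88550950-88551509, with a peak in 1 control library, 1 and 14 control reads, and 91 and 100 reads with Doxo. Control reads ran from 1 to 30 in library 1 (median 1) and from 1 to 22 in library 2 (median 10). Over all regions of the union the median was 1 in either library. The sum of both controls had a median of 11 reads, or 21.6 per kb, against 4 reads, or 5.66 per kb, over all regions. Without ZFPM1 the members' median sum was 8 reads, or 14.1 per kb. No member had 1 read in both controls, as 28.8% of all regions did.

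Exactly 1 control library stood at 1 read, the floor of the lists, at 18 members, and at 15 of these it was library 1. Over all regions 62.5% had this split. No control value in any list was below 1 read, so whether 1 can stand for no read cannot be told. Control library 2 was the higher at 17 of 25 members and library 1 at 8, with no ties. Over all regions library 2 was higher at 33.8% and library 1 at 36.4%, and the rest were ties. With ties kept in the total, library 2 was higher at 36.8% on chromosome 1 and 36.3% on chromosome 9. The share was 45.0% on chromosome 16 and 54.1% on chromosome 19. With control library 2 as the only control, 21 of 25 members kept a log2 fold of at least 1.5 with Doxo, and the 4 that did not were ZFPM1 regions 5, 6, 12 and 13 (1.22, 1.31, 1.38 and 1.19). With control library 1 as the only control, 25 of 25 did. Folds at members thus depend on which control is used, also at ZFPM1 region 6, which had 8 and 17 control reads.

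Doxo and diMe-Doxo were given at the same dose for the same time, so their signal was compared at the 5 members in both lists. All 5 were higher with Doxo. The comparison used edgeR's quasi-likelihood test over all 33140 regions in both lists, with Benjamini-Hochberg adjustment and library factors set by the shared controls. It called 28.9% of these regions higher with Doxo and 2.72% lower. On the scale of the shared controls, the Doxo libraries held 196 and 218 normalized reads at KLF1 region 1, and those of diMe-Doxo 13.1 and 9.13. The log2 difference was 4.21 (3.90 to 4.58 over the 4 pairs of libraries, edgeR adjusted p 6.62e-57).

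ZFPM1 region 15 followed, with 226 and 258 normalized reads with Doxo against 36.6 and 31.8 with diMe-Doxo. Its log2 difference was 2.82 (2.63 to 3.02 over the 4 pairs, edgeR adjusted p 1.87e-34). TAL1 region 2 had 83.2 and 106 against 18.6 and 13.8, a log2 difference of 2.54 (2.16 to 2.93, edgeR adjusted p 1.34e-20). At ZFPM1 region 11 the values were 39.8 and 41.5 against 16.3 and 8.24, a log2 difference of 1.72 (1.29 to 2.33, edgeR adjusted p 1.87e-06). At these 4 regions both Doxo libraries stood above both diMe-Doxo libraries. How many of all regions in both lists were separated in this way was not counted, so separation at a member is not a result about the members.

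The smallest difference was at ZFPM1 region 9, the member with the best diMe-Doxo support. Normalized reads there were 51.2 and 41.5 with Doxo against 28.9 and 17.4 with diMe-Doxo, a log2 difference of 1.0 (0.53 to 1.56, edgeR adjusted p 0.00265). The libraries did not overlap, but the call was lost with DESeq2 (log2 difference 0.67, DESeq2 adjusted p 0.191), without Doxo library 1 (0.84, edgeR adjusted p 0.0692) and without diMe-Doxo library 2 (0.68, edgeR adjusted p 0.143). The other 4 members kept their call in these fits. The median log2 difference over all 33140 regions was 0.28 with the shared-control factors and -0.05 with TMM factors. With TMM the 5 members had log2 differences of 3.88, 2.49, 2.21, 1.41 and 0.69 in the same order, all called higher (edgeR adjusted p from 3.52e-12 to 0.0436), where 23.6% of all regions were. The choice of scale moved each member by about as much as it moved the median.

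**Figure D4:**
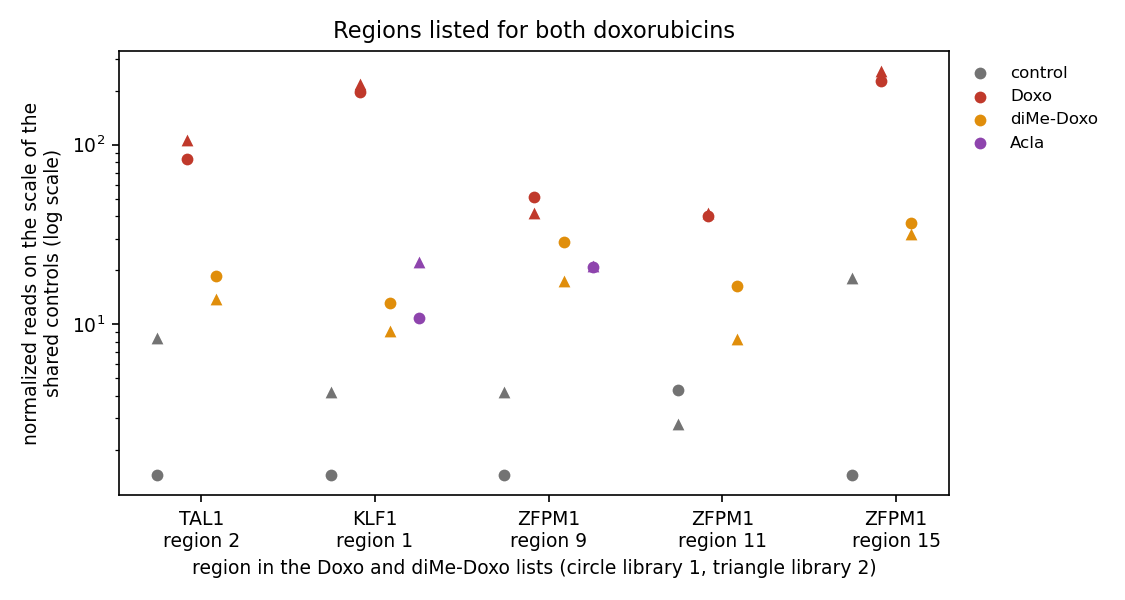
Normalized reads per library on the scale of the shared controls (log axis) at the 5 members in both the Doxo and the diMe-Doxo list, with Acla where listed. Doxo libraries lie above diMe-Doxo libraries at all 5 regions. How often all regions in both lists separate in this way was not counted, so this is not a result about the members. They are widest apart at KLF1 region 1 (196 and 218 against 13.1 and 9.13) and closest at ZFPM1 region 9.

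With Acla the dose was 20 µM, so its values stand beside the others without a comparison. On the same scale KLF1 region 1 had 10.8 and 22.2 normalized reads with Acla and ZFPM1 region 9 had 20.8 and 21.2. TAL1 region 3, the third Acla member, had 16.4 and 17.1 and is not in the diMe-Doxo list. The 2 Acla libraries were nearly equal at TAL1 region 3 and ZFPM1 region 9 and unequal at KLF1 region 1.

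Other genes of the red cell and blood programme were counted in the same way, with GRCh37 spans rounded to kb that were not checked against an annotation of that build. Of 20 with a RefSeq entry, 16 had a span length within 3 kb of it on GRCh38. Among 12 further regulators, 8 had a region in any list, with 93 regions in all. Of these 82 were in the Doxo list, 31 in the diMe-Doxo list and 32 in the Acla list. CBFA2T3, a corepressor gene that lies near ZFPM1 on chromosome 16, held the most, with 31 regions, all in the Doxo list, 7 of them also in the diMe-Doxo list and 6 in the Acla list.

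GATA1, GATA2, MYB and LDB1 held no gained region. The next genes and distances were picked after their values were seen. The nearest Doxo regions lay 10421 bp from GATA1 and 15647 bp from GATA2. RUNX1 held 13 regions and all were listed for Doxo alone, whereas FLI1, a factor of the megakaryocyte and endothelial programme, held 14 Doxo, 15 diMe-Doxo and 16 Acla regions among 22. Among red cell product and receptor loci, 7 held a region, 17 in all, with 17 in the Doxo list and 2 in each other list. The alpha globin locus held 7 of these and the beta globin locus 1, all listed for Doxo alone, and ALAS2 and TFRC held none.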

How the data were processed

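Per the submitters' processing notes, regions were compared with DiffBind on GRCh37. For the aligner, peak caller, normalization and test, name and version were not given in the sources used here. All 3 lists lack a header, so their columns were read from the values. The deposited signal equals whole reads multiplied by a factor that is fixed within a library. The mean levels and folds deposited by the authors are on a log2 scale, and the p-value and FDR are the authors' own. A deposited score counts the libraries with a called peak. Listed regions have p up to 0.05 and a log2 fold of 1.5 or more. The lists do not say whether starts count from 0 or 1.

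Signal was divided by the value of 1 read, taken from the gaps between neighbouring values, which left 100% of them whole to within 0.1 reads. Control reads were identical wherever lists share a region. The diMe-Doxo and Acla lists were put on the scale of the Doxo list by the geometric mean of the ratios of the control factors. A region counted for a gene if at least 1 bp lay in the span extended by 10 kb. Doxo and diMe-Doxo were compared with edgeR 4.0.16 (R 4.3.3) on recovered reads of the 2 treated libraries of each. A run on simulated data changed as many regions up as down, unlike the calls here, so it does not test them. DESeq2 1.42.0 and limma 3.58.1 on log2(signal + 1) were alternatives. Other steps used Python 3.11.15, numpy 2.4.6, pandas 2.3.3 and matplotlib 3.10.9.

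The members and lists were chosen with earlier results of these data known. For a gene with over 5 regions, the text names those with the lowest FDR in each list, the widest, the one with the most control reads and those nearest the span's ends. Other regions named say why. The result for 1 locus of the other lists is not reported here. Sequences of the regions were not analysed here, since no GRCh37 genome was used.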

Additional observations from a re-analysis of the deposited data

How the results depend on the processing

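Members in the lists, given in the order Doxo, diMe-Doxo, Acla (25, 5 and 3), numbered 21, 4 and 2 without the 10 kb extension and 24, 5 and 3 when 50% of a region had to lie in the window. With 50 kb either side they were 53, 14 and 11 of 54 regions. At an FDR of at most 0.01 with a log2 fold of at least 2 they were 15, 1 and 1. Counting members whose log2 fold stayed at 1.5 without 1 library, an alternative chosen after seeing the data, gave 21 to 25, 3 to 5 and 2 to 3. The 3 for diMe-Doxo came without control library 1. Over all 33140 regions in both doxorubicin lists, 9583 were higher and 900 lower with Doxo. These became 7831 and 3508 with TMM, 6366 and 1368 with DESeq2, 9344 and 905 with limma, and 7532 to 9125 and 158 to 815 without 1 library. The lower calls were 158 without diMe-Doxo library 1 and 514 without diMe-Doxo library 2. The cause of these changes was not tested. The filter of 50 reads removed no region. The median sum of both controls at members was 2.75 times that of all regions, or 3.82 times per kb. In median reads the excess was in control library 2 only. No paired analysis was possible because the labels give no replicate numbers. A fit with 1 library in a group assumes that it varies like the others. With 1 to 30 reads in a control library, control levels are imprecise and folds rest on few reads.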
